A study of Drosophila melanogaster with 6 samples.

Results

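The nuclear-encoded subunits of the mitochondrial respiratory chain were followed in sorted cells of the fruit fly Drosophila melanogaster. They were chosen by name alone, as genes whose current symbol starts with ND-, UQCR, COX or ATPsyn and that a probe set of the array measured without naming a second gene. This gave 60 genes of the 10844 that the array named, with 31 in complex I, 4 in complex III, 11 in complex IV and 14 in ATP synthase. A gene with more than 1 probe set (ATPsynC and ND-MNLL) was represented by the brighter one. Of the 60 genes, 14 carry an L after the subunit's name in the symbol, some with a further digit, and they are called L genes here.

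Complex I takes electrons from NADH, complex III passes them from ubiquinol to cytochrome c, and complex IV hands them to oxygen. All 3 pump protons across the inner mitochondrial membrane, and ATP synthase, often counted as complex V, lets them flow back to make ATP. Neurons are known to rely heavily on this chain, since they spend much ATP on restoring ion gradients. The few catalytic subunits encoded by mitochondrial DNA fall outside the symbol rule, so all values below concern nuclear genes. Subunit roles given below are mostly known from the mammalian orthologs.

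Total RNA was measured on 6 one-colour arrays. All cells came from sources with a red fluorescent reporter, dsRed1, joined to a 2.1 kb promoter fragment of Gad1, which encodes the enzyme that makes the transmitter GABA, and all were separated by fluorescence-activated sorting. EC_pos was the fluorescent fraction of cultured embryonic cells, with 4 arrays named a to d. LB_pos was the fluorescent fraction of larval brain and ventral nerve cord, and LB_neg was the non-fluorescent fraction of that tissue, each with 1 array. EC_pos differed from both larval groups in stage and in culture at once, and these cannot be told apart. The reporter marks cells in which this promoter fragment is active, which need not be every Gad1 cell. Nothing in the labels tells whether EC_pos arrays a to d are separate cultures. The p-values therefore cover only how these arrays scattered, and that scatter may be technical. In bulk RNA, fewer cells of a type and less RNA per cell cannot be told apart.

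The deposited intensities had already been scaled, with trimmed means between 499.3 and 499.7 on the 6 arrays. Of the 60 genes, 52 passed the filter, meaning that some array held an intensity above 197.4, the median pooled over arrays, and were tested among 9635 probe sets. Array a differed from the rest of EC_pos. Its ratios of 3' to 5' control probe sets were 147.6 for actin, 640.3 for eIF-4a and 865.8 for GAPDH, against at most 72.5 for actin, 46.3 for eIF-4a and 42.4 for GAPDH on arrays b to d. The larval arrays had 58.3 for actin, 40.1 for eIF-4a and 8.9 for GAPDH on LB_pos, and 29.5, 120.3 and 19.5 on LB_neg. Results are therefore given with all 4 EC_pos arrays and without array a. Gad1, whose promoter drives the reporter, lay below the offset of 53.6 on all 4 EC_pos arrays (22.2 to 39.0) and reached 54.8 on LB_pos and 22.0 on LB_neg. The summed intensity of 11 neuron markers (of 14 listed) was 3320 to 8287 on the EC_pos arrays, 12857 on LB_pos and 9579 on LB_neg, and 1 to 4 of the 11 lay below the offset on each array. The marker elav gave 4940 of the LB_neg sum and 1541 of the LB_pos sum. The markers nSyb, futsch, nrv3 and ChAT were each more than 1 log2 unit higher on LB_pos than on LB_neg. VGAT was level, with 738 on LB_pos and 740 on LB_neg. The summed intensity of 9 muscle genes (of 14 listed) was 3587 on EC_pos array a, 13843 to 17979 on EC_pos arrays b to d, 3403 on LB_pos and 5735 on LB_neg. Of these muscle genes 6 lay below the offset on each larval array. Without array a, 6 of the 8 tested were called higher in EC_pos than in LB_pos, beside 8.61% of all tested probe sets. Of these 6, all but Mlc2 passed the filter through EC_pos arrays alone, so their direction was favoured by the filter. Most of each larval sum came from Act87E, at 2818 on LB_pos and 4994 on LB_neg, which was not called. The muscle gene sls went the other way, with 326 on LB_pos, 334 on LB_neg and 21.1 to 181.2 on the EC_pos arrays. Muscle is rich in mitochondria, and the part of muscle RNA in the subunit levels was not tested.

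The subunit genes had similar middle levels on EC_pos arrays b to d and on the larval arrays, and a lower one on EC_pos array a. On the log2(intensity + 53.6) scale the median of the 52 tested genes was 10.07 on EC_pos array a, 11.06 on b, 10.93 on c and 10.84 on d. It was 10.70 on LB_pos and 10.73 on LB_neg.

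**Figure D1:**
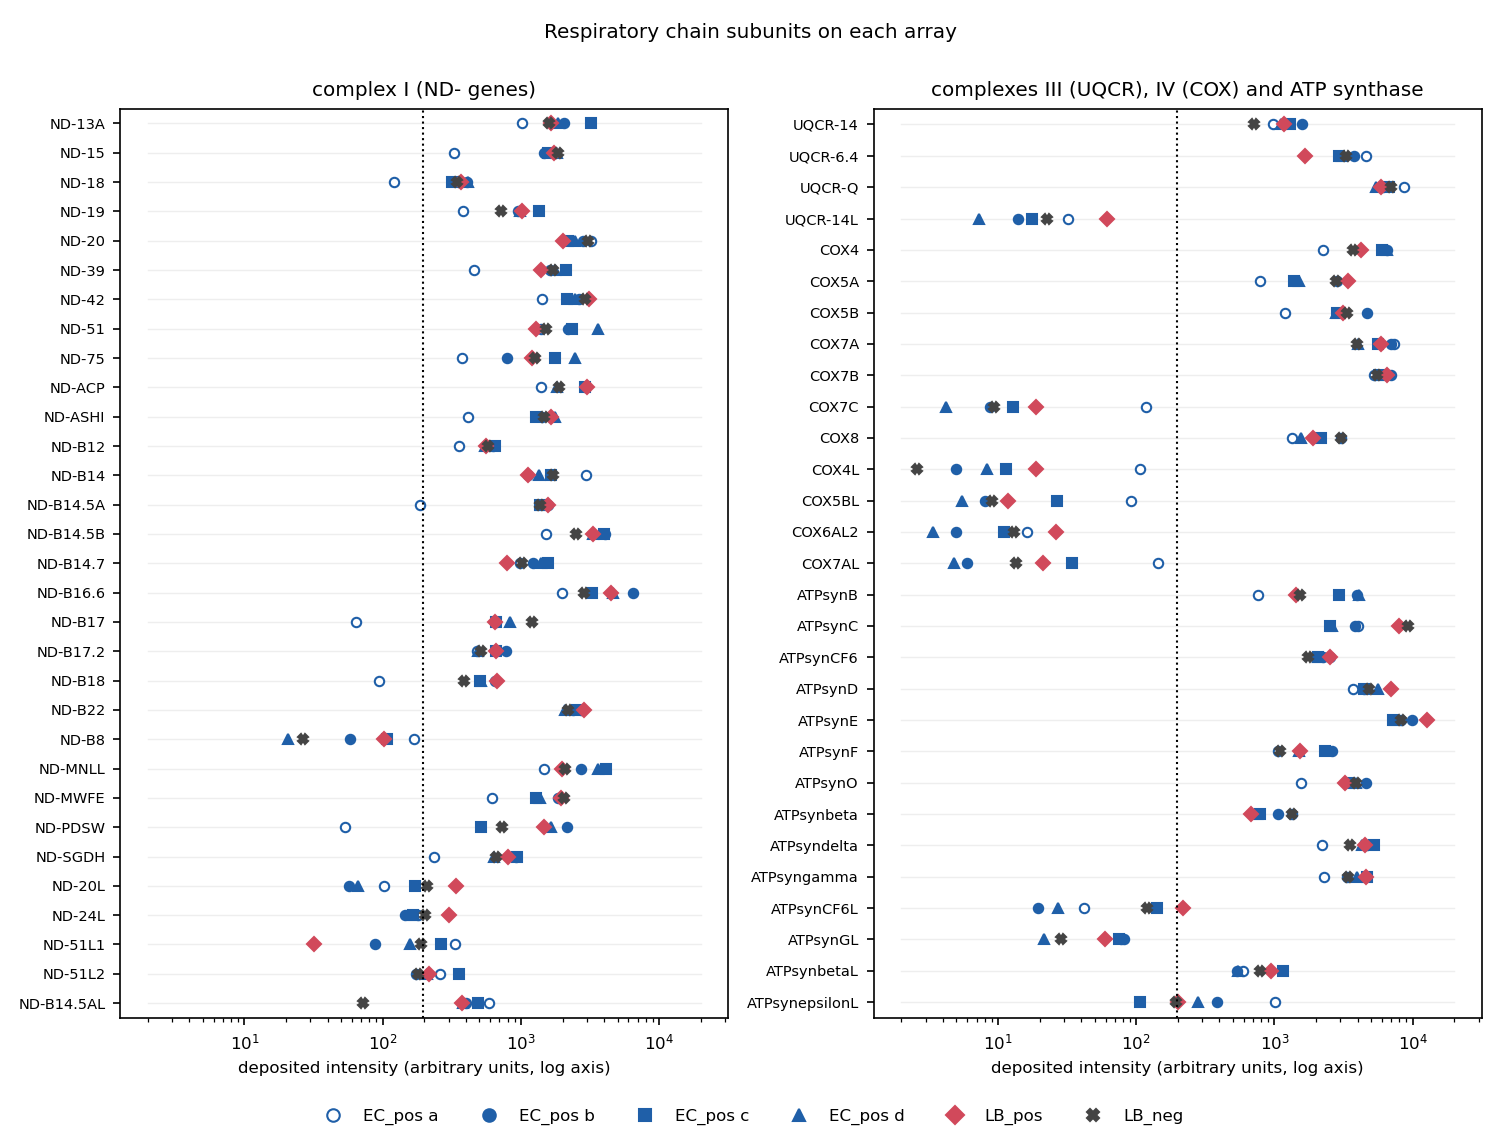
Deposited intensity of each of the 60 subunit genes (rows) on each array, on a log axis. Open circles are EC_pos array a, filled blue symbols EC_pos arrays b to d, red diamonds LB_pos and dark crosses LB_neg, and the dotted line is the filter at 197.4. For 34 of the 52 tested genes the open circle lies left of all filled blue symbols, as for ND-B17 at 63.9 on array a and 660.4 to 838.9 on b to d.

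With all 4 EC_pos arrays no subunit gene was called different from either larval fraction at a limma adjusted p under 0.05. Against LB_pos, 0 of 52 were called, where 0.0311% of all tested probe sets were called. An unadjusted p under 0.05 was held by 1 of the 52, beside 13.5% of all tested probe sets. This 1 was the L gene ND-20L, which passed the filter through the larval arrays alone. Against LB_neg, 0 of 52 were called, where 0.54% of all tested probe sets were called. Here 2 of the 52 had an unadjusted p under 0.05, beside 17.4% of all tested probe sets. The 95% interval of a difference reached a median of 1.51 log2 units to each side over the 52 genes.

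Without array a the intervals narrowed to a median of 0.81 log2 units to each side and a few subunit genes were called, all but 1 of them in ATP synthase. Against LB_pos, 1 of 52 was called higher in EC_pos, beside 8.61% of all tested probe sets, and 1 of 52 lower, beside 5.49%. Against LB_neg, 2 of 52 were called higher in EC_pos, beside 12.6% of all tested probe sets, and 1 of 52 lower, beside 10.6%. These shares of the subunit genes were below the background in each direction. The 2 comparisons share the EC_pos arrays. When array b, c or d was left out instead, limma called no subunit gene and no other probe set in either comparison. In those fits 0 to 2 of the 52 had an unadjusted p under 0.05, beside 780 to 1216 of the 9635 tested probe sets.

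The called genes were ATPsynB, ATPsynC and the L gene ND-B14.5AL. ATPsynB encodes a subunit of the peripheral stalk, which holds the catalytic head of ATP synthase still while the rotor turns. Its intensities were 757, 3953, 2946 and 4081 on EC_pos arrays a to d, against 1433 on LB_pos and 1518 on LB_neg. Arrays b to d all lay above both larval arrays and array a below both. The difference from LB_pos was 0.76 ± 0.95 (SE) log2 units with 4 arrays (limma adjusted p = 0.761) and 1.31 ± 0.33 without array a (limma adjusted p = 0.0343). The difference from LB_neg was 0.68 ± 0.95 with 4 arrays (limma adjusted p = 0.791) and 1.23 ± 0.33 without array a (limma adjusted p = 0.0294).

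ATPsynC encodes the subunit whose copies form the proton-carrying ring of the rotor. Its intensities were 3991, 3825, 2541 and 2595 on EC_pos arrays a to d, against 7893 on LB_pos and 9197.5 on LB_neg. All 4 EC_pos arrays lay below both larval arrays, array a included. The difference from LB_pos was -1.30 ± 0.57 log2 units with 4 arrays (limma adjusted p = 0.389) and -1.41 ± 0.33 without array a (limma adjusted p = 0.0280). The difference from LB_neg was -1.52 ± 0.57 with 4 arrays (limma adjusted p = 0.242) and -1.63 ± 0.33 without array a (limma adjusted p = 0.0103). The dimmer of its 2 probe sets gave 606, 318, 388 and 267 on EC_pos arrays a to d, 1171 on LB_pos and 336 on LB_neg. Both probe sets were lower in EC_pos than in LB_pos, with a difference of -1.50 for the dimmer one, but against LB_neg the dimmer one differed by 0.15, so the 2 probe sets disagree there.

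**Figure D2:**
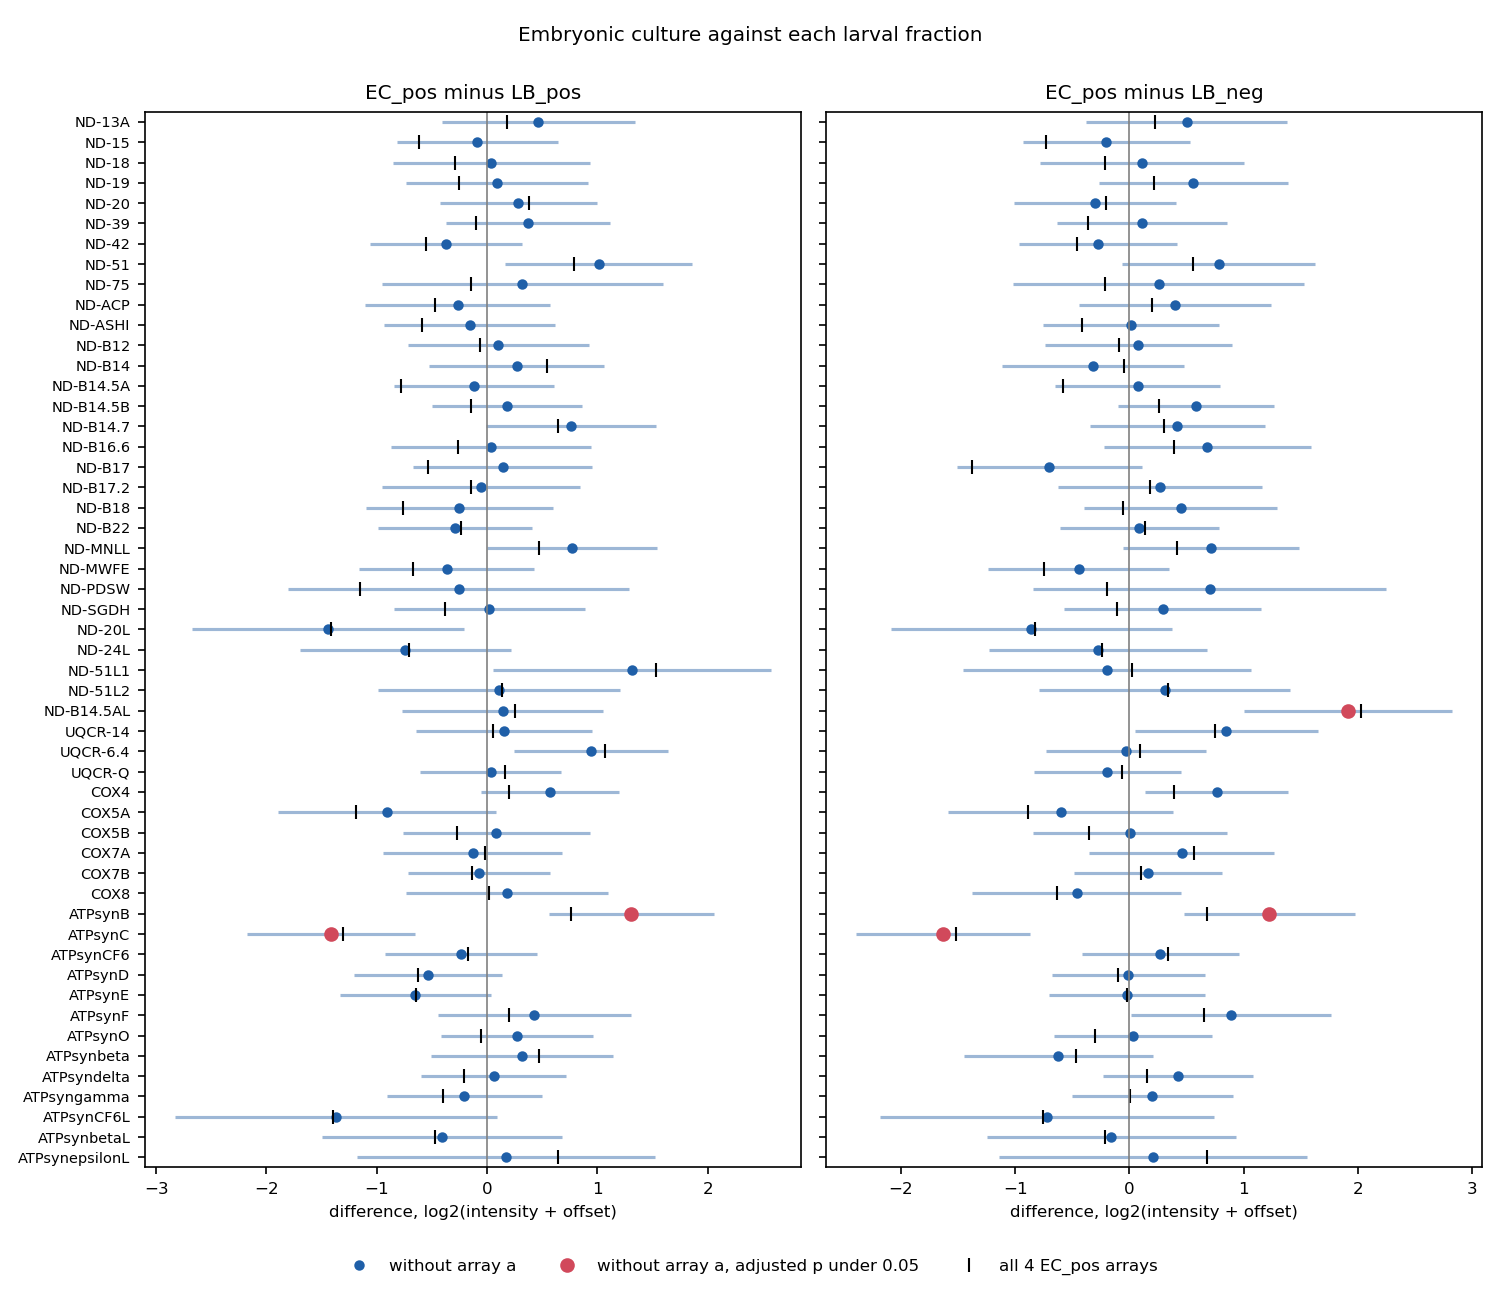
Difference of EC_pos from LB_pos (left) and from LB_neg (right) on the log2(intensity + 53.6) scale for the 52 tested subunit genes. Dots are estimates without EC_pos array a with 95% intervals from limma, large red dots those with an adjusted p under 0.05 and black ticks the estimates with all 4 arrays. Most intervals cross 0, and in complex I most ticks lie left of their dots.

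The size of the differences was small beside that of other probe sets. Without array a, the median absolute difference of EC_pos from LB_pos was 0.27 log2 units over the 52 subunit genes, against 0.69 over all tested probe sets. Of the 52 genes 88.5% lay within 1 log2 unit of LB_pos, against 66.9% of all tested probe sets. Against LB_neg the shares were 94.2% of the subunit genes and 63.8% of all tested probe sets. Brighter probe sets did not show smaller differences: among the 3055 probe sets at or above the subunits' lower quartile of mean intensity, 745.3, 65.8% lay within 1 log2 unit of LB_pos and 55.6% of LB_neg. Of the 39 subunit genes at or above that intensity, 92.3% lay within 1 log2 unit of LB_pos and 94.9% of LB_neg. With all 4 EC_pos arrays 86.5% of the 52 genes lay within 1 log2 unit of LB_pos, against 68.6% of all tested probe sets. Over all 60 genes with no filter this was 88.3%, against 75.8% of all probe sets. Small differences were also seen in other mitochondrial lists described below. Without array a, 3 of 3 complex II genes and 5 of 5 assembly factors lay within 1 log2 unit of LB_pos. So did 3 of 3 other complex III and cytochrome c genes and 9 of 10 biogenesis genes. It was 6 of 9 for the TCA cycle list and 6 of 10 for the carriers.

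The spread between single arrays was also computed. The SD over the subunit genes of the log2 difference between 2 arrays was 0.62 for EC_pos array b against LB_pos, where it was 1.19 over all tested probe sets and 1.42 over the 3055 bright ones. For array c against LB_pos it was 0.65 over the subunit genes and 1.28 over all tested probe sets, and for array d 0.68 and 1.33. Array a stood further from the larval arrays, with 1.17 over the subunit genes and 1.42 over all tested probe sets against LB_pos, and 1.09 and 1.49 against LB_neg. Among the EC_pos arrays it was 0.63 over the subunit genes and 0.68 over all tested probe sets between b and c, 0.45 and 0.66 between b and d, and 0.49 and 0.54 between c and d. Pearson's r across the 52 subunit genes was 0.90 to 0.92 between each of arrays b to d and each larval array, where it was 0.60 to 0.71 across all tested probe sets. For array a it was 0.73 against LB_pos and 0.77 against LB_neg across the subunit genes, and 0.59 and 0.58 across all tested probe sets. These are descriptions across genes that share arrays and probe-set brightness, with no test.

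**Figure D3:**
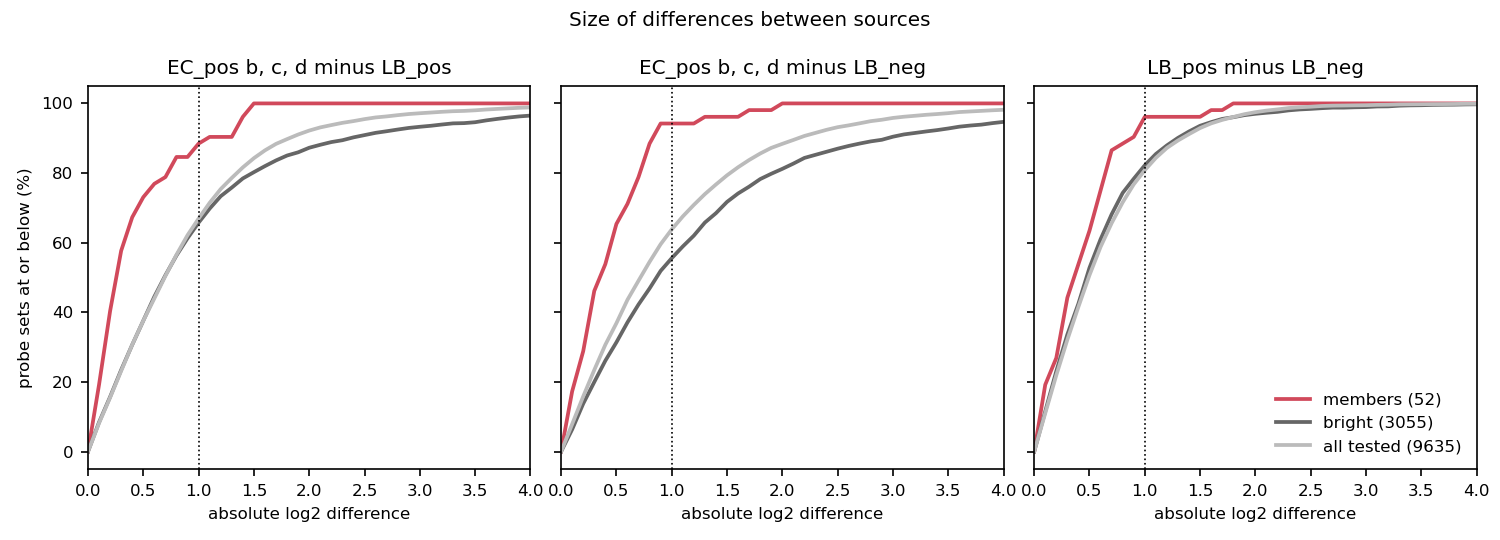
Cumulative share of probe sets (vertical axis, percent) by absolute log2 difference (horizontal axis) for EC_pos arrays b to d against LB_pos, the same arrays against LB_neg, and LB_pos against LB_neg. Red is the 52 subunit genes, dark grey the 3055 bright probe sets and light grey all 9635 tested. At the dotted line, 1 log2 unit, the red curve stands at 88.5%, 94.2% and 96.2%, and the light grey curve at 66.9%, 63.8% and 80.8%.

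The direction of the subunits as a group depended on array a. The median difference of the 52 genes from LB_pos was -0.16 log2 units with 4 EC_pos arrays, beside -0.24 over all tested probe sets, and 0.05 without array a, beside -0.26. Against LB_neg it was -0.05 with 4 arrays, beside -0.11, and 0.11 without array a, beside -0.14. Over all 60 genes with no filter and 4 arrays the medians were -0.15 against LB_pos and -0.01 against LB_neg. With the arrays brought to a common median instead, the median of all tested probe sets against LB_pos moved to -0.03 and that of the subunit genes to 0.08. Of the 52 genes 8 lay above LB_pos on every EC_pos array, beside 18.7% of all tested probe sets, and 13 below it, beside 34.7%. Against LB_neg 4 of 52 lay above on every array, beside 24.7%, and 8 of 52 below, beside 30.0%. The filter favoured the direction of some of these genes. ND-51L1, above LB_pos, passed through EC_pos arrays alone. ND-20L and ND-24L, below both larval arrays, and ATPsynCF6L, below LB_pos, passed through larval arrays alone.

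Complex I has a matrix arm, which takes up the electrons, and a membrane arm, which pumps the protons. The arms are counted here without the 5 L genes of complex I. Without array a, 8 of 9 tested genes of the matrix arm and 15 of 15 of the membrane arm lay within 1 log2 unit of LB_pos. With the L genes included, 27 of the 30 tested complex I genes did. The matrix arm, of which 10 genes were measured, had differences from LB_pos between -0.12 and 1.01, with a median of 0.28. The membrane arm had differences between -0.37 and 0.77, with a median of 0.02. With all 4 arrays the median was -0.10 for the matrix arm and -0.38 for the membrane arm. Against LB_neg without array a the medians were 0.11 for the matrix arm and 0.29 for the membrane arm. No complex I gene without an L was called against either fraction. Without array a 1 of 25 had an unadjusted limma p under 0.05 against LB_pos, beside 32.8% of all tested probe sets. Against LB_neg it was 0 of 25, beside 36.2%. ND-ACP, the mitochondrial acyl carrier protein found in both arms, differed by -0.27 from LB_pos and 0.40 from LB_neg without array a.

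In the matrix arm ND-51, the flavoprotein subunit that binds NADH, had the largest positive difference from LB_pos of the complex I genes without an L. Its intensities were 1406, 2203.5, 2332 and 3610.2 on EC_pos arrays a to d, against 1287 on LB_pos and 1519 on LB_neg. Each EC_pos array lay above LB_pos. The difference from LB_pos was 0.79 ± 0.62 log2 units with 4 arrays (limma adjusted p = 0.611) and 1.01 ± 0.37 without array a (95% interval 0.16 to 1.86, limma adjusted p = 0.102), which did not pass.

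ND-20, which carries the last iron-sulfur cluster before ubiquinone, had 3230.1, 2815, 2185 and 2479.7 on EC_pos arrays a to d, against 2030.1 on LB_pos and 3068 on LB_neg. The EC_pos arrays lay above LB_pos and overlapped LB_neg. Its difference from LB_pos was 0.28 without array a, with a 95% interval of -0.43 to 0.99. ND-B14.5A, an accessory subunit, had 187 on EC_pos array a and 1558, 1374.5 and 1397 on b to d, against 1569.5 on LB_pos and 1367 on LB_neg. Arrays b to d were thus within the narrow band of the larval arrays, and without array a the difference from LB_pos was -0.12, with a 95% interval of -0.84 to 0.60.

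In the membrane arm ND-PDSW and ND-B17, both accessory subunits, had much lower values on array a than on b to d. ND-PDSW had 53.1, 2140.0, 511 and 1638 on EC_pos arrays a to d, against 1477 on LB_pos and 734 on LB_neg. The EC_pos arrays spanned both larval arrays, and array a was below the offset. Its difference from LB_pos was -1.16 ± 1.54 log2 units with 4 arrays (limma adjusted p = 0.778) and -0.26 ± 0.67 without array a (limma adjusted p = 0.817). ND-B17 had 63.9, 660.4, 664 and 839 on EC_pos arrays a to d, against 646 on LB_pos and 1197 on LB_neg. LB_neg was higher than every EC_pos array, and EC_pos differed from it by -0.70 ± 0.35 without array a (limma adjusted p = 0.192).

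All 3 tested complex III genes encode small accessory subunits. None was called by limma, and without array a 1 of 3 had an unadjusted p under 0.05 in each comparison. Over all tested probe sets this share was 32.8% against LB_pos and 36.2% against LB_neg. UQCR-6.4 had 4626.5, 3741, 2943 and 3088 on EC_pos arrays a to d, against 1661.5 on LB_pos and 3309.5 on LB_neg. Each of the EC_pos arrays lay above LB_pos, array a highest, and they overlapped LB_neg. The difference from LB_pos was 1.07 ± 0.54 log2 units with 4 arrays (limma adjusted p = 0.441) and 0.94 ± 0.31 without array a (limma adjusted p = 0.0762). UQCR-Q had 8646, 6141, 6683 and 5459 on EC_pos arrays a to d, against 5935 on LB_pos and 6951 on LB_neg, so the groups overlapped. UQCR-14 had 975, 1580.4, 1291.5 and 1113 on EC_pos arrays a to d, against 1178 on LB_pos and 706 on LB_neg. It lay above LB_neg on all 4 EC_pos arrays, by 0.85 log2 units without array a (95% interval 0.05 to 1.65, limma adjusted p = 0.119).

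The COX genes encode the nuclear subunits that surround the catalytic core of complex IV. The 6 tested genes differed from LB_pos by -0.91 to 0.57 log2 units without array a and from LB_neg by -0.60 to 0.76. None was called by limma. Without array a 0 of 6 had an unadjusted p under 0.05 against LB_pos, beside 32.8% of all tested probe sets. Against LB_neg it was 1 of 6, beside 36.2%. COX4 had 2246.5 on EC_pos array a and 6525, 6036 and 6467.5 on b to d, against 4255 on LB_pos and 3715 on LB_neg. Arrays b to d lay close together above both larval arrays and array a below them. The difference without array a was 0.57 ± 0.27 from LB_pos (limma adjusted p = 0.186) and 0.76 ± 0.27 from LB_neg (limma adjusted p = 0.0798).

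COX5A had 787, 2824, 1382 and 1504 on EC_pos arrays a to d, against 3430.2 on LB_pos and 2771 on LB_neg. All 4 EC_pos arrays lay below LB_pos, with a difference of -0.91 ± 0.43 without array a (limma adjusted p = 0.183). COX5B had 1201, 4668, 2835.5 and 2783 on EC_pos arrays a to d, against 3138 on LB_pos and 3325 on LB_neg. COX8 had 1333, 3021.5, 2186 and 1548 on EC_pos arrays a to d, against 1905 on LB_pos and 3012 on LB_neg. Both overlapped each larval fraction. COX7A, at 7328, 7008, 5596 and 4022 on EC_pos arrays a to d, overlapped LB_pos at 5922 and lay above LB_neg at 3925.5, by 0.46 without array a (95% interval -0.36 to 1.27).

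Apart from ATPsynB and ATPsynC, the ATP synthase genes without an L stayed within 1 log2 unit of both larval fractions without array a. The 3 genes of the head and central stalk (ATPsynbeta, the catalytic subunit, and the rotor subunits ATPsyngamma and ATPsyndelta) had differences from LB_pos between -0.21 and 0.32 log2 units. ATPsynbeta had 1334, 1057, 792 and 745 on EC_pos arrays a to d, against 676 on LB_pos and 1344 on LB_neg. Its EC_pos arrays all lay between the 2 larval arrays. In the peripheral stalk ATPsynO had 1543.5, 4570.5, 3464 and 3900.2 on EC_pos arrays a to d, against 3263 on LB_pos and 3875 on LB_neg, and overlapped both. ATPsynCF6 had 2540.3, 2259.6, 2053 and 2077 on EC_pos arrays a to d, against 2519 on LB_pos and 1754 on LB_neg, and lay above LB_neg on every array. ATPsynE, of the membrane part, had 8163, 9962, 7152 and 7419.5 on EC_pos arrays a to d, against 12716 on LB_pos and 8220.4 on LB_neg. LB_pos was higher than every EC_pos array, and EC_pos differed from it by -0.65 ± 0.30 without array a (limma adjusted p = 0.170).

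EC_pos array a was the lowest EC_pos array for 34 of the 52 subunit genes, beside 40.3% of all tested probe sets. It lay at least 1 log2 unit below the mean of arrays b to d for 22 of 52, beside 22.0% of all tested probe sets. The median deviation was -0.76 log2 units over the subunit genes, -0.05 over all tested probe sets and -0.28 over the 3055 bright ones. The complexes did not move alike. The median was -1.21 for the 25 tested complex I genes without an L, of which 22 were lowest on array a, and -0.91 for the 6 complex IV genes, of which 5 were lowest. It was 0.51 for the 3 complex III genes and 0.12 for the 8 tested L genes, of which 0 were lowest on array a. Within ATP synthase the peripheral stalk had a median of -0.85 and the membrane part 0.01. The part of RNA quality in these deviations, for which the 3' to 5' ratios are given above, was not tested.

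**Figure D4:**
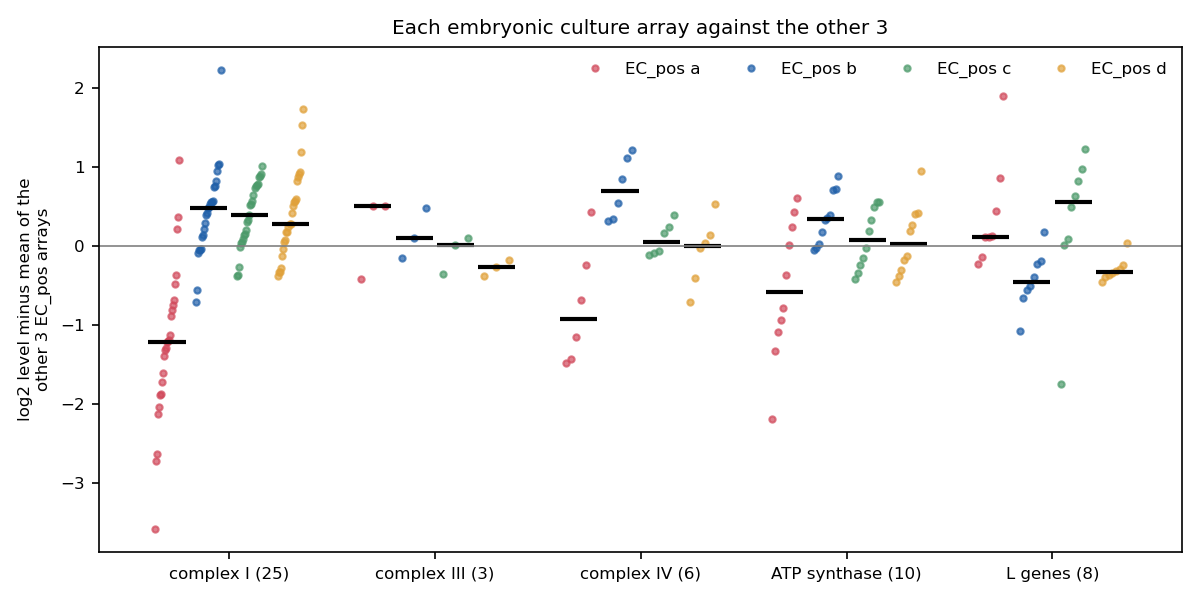
Log2 level of each tested subunit gene on 1 EC_pos array minus its mean on the other 3 (vertical axis), by complex for genes without an L and for the L genes, with the number of genes in brackets. Each dot is a gene, colours are the EC_pos arrays and black bars are medians. Array a has its median at -1.21 in complex I and -0.91 in complex IV, and at 0.51 in complex III.

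Between the larval fractions, with 1 array each and no test, the subunit genes differed little. LB_pos was at least 1 log2 unit higher than LB_neg for 1 of 52 genes, beside 11.8% of all tested probe sets, and at least 1 lower for 1 of 52, beside 7.38%. Within 1 log2 unit lay 96.2% of the subunit genes, 80.8% of all tested probe sets and 82.2% of the 3055 bright ones. The median of LB_pos minus LB_neg was 0.19 over the subunit genes and 0.11 over all tested probe sets. With arrays brought to a common median these were -0.14 and -0.17, so the sign of the subunits' median follows the scaling. The fractions differed in other markers: 9 neuroblast and progenitor genes summed to 5961 on LB_pos and 15697 on LB_neg, and 7 genes of dividing cells (of 10 listed) to 5816 on LB_pos and 11741 on LB_neg. The part of these cells in the subunit levels was not tested.

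In the deposited scaling both genes past 1 log2 unit were L genes. With a common median 4 genes were at least 1 log2 unit lower on LB_pos, and ND-B14.5AL was higher at 1.51. The 4 were ND-51L1, UQCR-6.4 at -1.30, ATPsynbeta at -1.25 and ND-B17 at -1.15. Under that scaling the median of all tested probe sets moved down as well, and no share over them is given beside this count. ND-B14.5AL had 591, 402, 486 and 383 on EC_pos arrays a to d, 377 on LB_pos and 72.4 on LB_neg, with a larval difference of 1.77. All 4 EC_pos arrays lay above LB_neg, and close above LB_pos. Its difference from LB_neg was 2.02 ± 0.48 log2 units with 4 EC_pos arrays (limma adjusted p = 0.106) and 1.92 ± 0.40 without array a (limma adjusted p = 0.0112), and from LB_pos 0.14 ± 0.40 without array a (limma adjusted p = 0.831). ND-51L1 had 332, 87.7, 265 and 159 on EC_pos arrays a to d, 31.8 on LB_pos, below the offset, and 189.0 on LB_neg. It was the gene at least 1 log2 unit lower on LB_pos, a difference that rests on a value below the offset. It passed the filter through EC_pos arrays a and c alone, which favours a higher value in EC_pos. With LB_pos below the offset no fold against LB_pos is given.

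Among the genes without an L the larval differences lay between -0.97 and 0.96 log2 units. The ends were UQCR-6.4 at -0.97, with 1661.5 on LB_pos and 3309.5 on LB_neg, and ND-PDSW at 0.96, with 1477 on LB_pos and 734 on LB_neg. By role the medians were -0.06 for the matrix arm and 0.17 for the membrane arm of complex I, -0.23 for complex III and 0.22 for complex IV. In ATP synthase they were 0.36 for the head and central stalk, 0.21 for the peripheral stalk and 0.46 for the membrane part. Within the head and central stalk the genes went opposite ways, as ATPsynbeta differed by -0.94 and both rotor genes were above 0.

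In the fly many duplicated genes of the respiratory chain are known for expression in the testis. Of the 14 L genes 8 passed the filter, against 44 of the 46 genes without an L. Over all probe sets that were not controls, 9635 of 13966 passed. The genes that did not pass were UQCR-14L, COX4L, COX5BL, COX6AL2, COX7AL and ATPsynGL, with COX7C and ND-B8 among those without an L. All 8 stayed at or below 169.8 on every array. No probe set's level was set against another's, since probe sets differ in response. Markers of germ line and testis, 9 of 10 listed, summed to 1673 to 2358 on the EC_pos arrays, 3785 on LB_pos and 1709 on LB_neg, and 1 to 5 of the 9 lay below the offset on each array. Their part in the L genes' levels was not tested.

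Of the 4 L genes of complex IV, 3 were brightest on EC_pos array a, where 5 of the 6 tested COX genes were lowest among the EC_pos arrays. Array a lay at least 1 log2 unit above the mean of the other EC_pos arrays for 19.1% of all tested probe sets. These 3 L genes did not pass the filter and are not among the tested probe sets. No share over the probe sets that did not pass is given. COX4L had 107.0 on array a and 5.0 to 11.5 on b to d, against 19.0 on LB_pos and 2.6 on LB_neg. COX5BL had 92.0 on array a and 5.5 to 26.8 on b to d, against 11.8 on LB_pos and 9.1 on LB_neg. COX7AL had 143.2 on array a and 4.8 to 34.2 on b to d, against 21.2 on LB_pos and 13.4 on LB_neg. All 3 were below the offset on every array but a, as was COX7C, a gene without an L, with 117.7 on array a and 4.2 to 12.8 on b to d. ND-B8, also without an L, had 169.8 on array a and 20.6 to 107.3 on b to d. UQCR-14L had 7.3 to 32.0 on the EC_pos arrays, 61.3 on LB_pos and 22.5 on LB_neg, and passed the offset on LB_pos alone.

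The L genes ND-20L, ATPsynCF6L, ATPsynbetaL and ATPsynepsilonL passed the filter and none was called. ND-20L had 102, 57.0, 172 and 66.3 on EC_pos arrays a to d, against 338 on LB_pos and 208 on LB_neg. It passed the filter through the larval arrays alone, all 4 EC_pos arrays lying below both. Its direction against LB_pos was thus favoured by the filter, and no fold is given. ATPsynCF6L had 42.1, 19.5, 141 and 27.4 on EC_pos arrays a to d, against 217 on LB_pos and 119 on LB_neg. It was below the offset on 3 EC_pos arrays and above the filter on LB_pos alone, so its direction against LB_pos was set by the filter and no fold is given. ATPsynbetaL had 591, 538, 1149 and 547 on EC_pos arrays a to d, against 949 on LB_pos and 788 on LB_neg, and overlapped both. ATPsynepsilonL had 1016, 383.5, 107 and 280.5 on EC_pos arrays a to d, against 201 on LB_pos and 195 on LB_neg, and overlapped both.

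Other mitochondrial genes gave the subunits a setting, as counts among those on the array that passed the filter. None of the 3 complex II genes, the 3 complex III and cytochrome c genes outside the symbol rule, the 5 assembly factors or the 10 genes of mitochondrial DNA upkeep and biogenesis was called against LB_pos by limma, with 4 arrays or without array a. Without array a 1 of these genes, in the biogenesis list, had an unadjusted p under 0.05, beside 32.8% of all tested probe sets. The biogenesis genes all lay below 0 against LB_pos, between -0.85 and -0.10 log2 units with 4 arrays, beside a median of -0.24 over all tested probe sets. Without array a, 2 of 9 genes of pyruvate dehydrogenase and the TCA cycle were called higher in EC_pos than in LB_pos, beside 8.61% of all tested probe sets. These were Ogdh, of the 2-oxoglutarate dehydrogenase complex, at 1.69 ± 0.36 (limma adjusted p = 0.0202) and ScsbetaA, of succinyl-CoA synthetase, at 1.15 ± 0.29 (limma adjusted p = 0.0343). Of 10 carrier, pore and import genes 1 was called higher without array a, near that background share, the phosphate carrier Mpcp2 at 1.10 ± 0.28 (limma adjusted p = 0.0363).

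Against LB_neg without array a, SdhB of complex II was called higher in EC_pos at 1.06 ± 0.30 (limma adjusted p = 0.0371), while the assembly factor Cox10 and the biogenesis factor ewg were called lower, at -1.18 ± 0.30 (limma adjusted p = 0.0260) and -2.08 ± 0.52 (limma adjusted p = 0.0235). The TCA cycle list then had 3 of 9 called higher and the carriers 1 of 10, beside 12.6% of all tested probe sets. Of the glycolysis genes 7 of 8 were called higher in EC_pos than in LB_neg without array a, beside the same 12.6%. With 4 arrays 0 of 8 were called and 5 had an unadjusted limma p under 0.05, beside 17.4% of all tested probe sets. The median difference of the 8 genes from LB_neg was 2.69 log2 units without array a, where that of the 52 subunit genes was 0.11. The largest of the 8 was that of the aldolase gene Ald1, with 1753 on EC_pos array a, 19517 to 22575 on b to d, 23098 on LB_pos and 1719 on LB_neg. Against LB_pos without array a 1 glycolysis gene was called higher, the phosphofructokinase gene Pfk at 1.38 ± 0.32 (limma adjusted p = 0.0278). Between the larval fractions the 8 glycolysis genes had a median of 2.29, with 7 of 8 at least 1 log2 unit higher on LB_pos, where the subunit genes had a median of 0.19 and 1 of 52.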

How the data were processed

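The authors deposited 1 linear intensity per probe set and array. For these intensity values the software and scanner were not given in the sources used here, nor was a genome build, so coordinates are omitted. Gene names are those of the platform's annotation with symbols brought up to date from RefSeq. Values were log2(intensity + 53.6), the offset being the 25th percentile of the 13966 probe sets that were not controls (44 control probe sets were left out). The 3 group means were fitted over all 9635 tested probe sets with limma 3.58.1 in R 4.3.3 (eBayes with a trend, Benjamini-Hochberg adjustment per contrast). The spread came from the EC_pos arrays alone (3 residual degrees of freedom, 2 without array a), and each larval array was taken to vary in the same way. The fit was tested on simulated data. Named genes were those called, in each complex the 2 largest differences in each direction, and L genes with their namesakes, and in other lists members called or with the largest differences, some chosen after their values were seen. Other lists held 3 to 10 tested genes. The symbol rule, lists, roles and tests were chosen with earlier results of these data known.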

Additional observations from a re-analysis of the deposited data

Results flagged for a closer look

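Of 30 items examined, 5 had 1 EC_pos array far from the other 3, and each of the 5 was a subunit gene. Some of these were named for large differences in these same data, so the nominal rate of 1 in 20 is no reference for them. No rate of such flags over all tested probe sets is given. Array a lay at least 1 log2 unit below the mean of the other EC_pos arrays for 22.0% of all tested probe sets and above it for 19.1%. Array a was the low array for ND-B14.5A (187.1, others 1374.5 to 1558), ND-B17 (63.9, others 660.4 to 839) and COX4 (2246.5, others 6036 to 6525). It was the high array for COX4L (107.0, others 5.0 to 11.5), which did not pass the filter and is not among the tested probe sets. Array c was the high array for ATPsynbetaL (1148.9, others 538 to 591). Array a is also the array with the highest ratios of 3' to 5' control probe sets, and the part of that in these values was not tested.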

How the results depend on the processing

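The number of subunit genes called between EC_pos and a larval fraction was 0 under each other offset, filter, scaling, trend and probe-set setting tried, and 0 to 2 against LB_pos and 0 to 3 against LB_neg when 1 EC_pos array was left out, the higher counts without array a. Over all probe sets the calls with 4 arrays were 0 to 12 against LB_pos and 7 to 161 against LB_neg over those settings, and 1359 and 2231 without array a. Between the larval fractions the number of subunit genes at least 1 log2 unit higher on LB_pos was 2 with quantile normalization. The number at least 1 lower was 0 with the offset at the 50th percentile and 4 with a common median. No share over all tested probe sets is given beside these counts, and the cause of their changes was not tested. Of 700 recomputed values of named genes, 5 became significant, all without array a, and 37 moved. No paired analysis was possible because the larval groups have 1 array each. Limits: the spread comes from 4 arrays of 1 group, of which array a decides most calls, intensities near the offset carry little information, and a difference without an adjusted p under 0.05 is not shown to be absent.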

Other observations

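A further 4 probe sets name a subunit gene together with another gene and entered no comparison. The one shared by ATPsynG and beat-Vb had 807, 4397, 4594.5 and 4547 on EC_pos arrays a to d, 4677.5 on LB_pos and 2992 on LB_neg. The one shared by ND-13B and CG33493 had 236, 371, 517 and 462 on EC_pos arrays a to d, 291 on LB_pos and 343 on LB_neg. The one shared by COX6B and CG18809 had 2981, 4738, 5602 and 4523 on EC_pos arrays a to d, 9289 on LB_pos and 4624 on LB_neg, so that LB_pos was the highest of the 6 arrays. The one shared by COX6AL2 and Ir75d had 77.1, 55.9, 45.8 and 18.8 on EC_pos arrays a to d, 145.6 on LB_pos and 55.6 on LB_neg. The dimmer probe set of ND-MNLL had 671, 1506, 1928 and 2199 on EC_pos arrays a to d, 1123 on LB_pos and 984 on LB_neg, with array a the lowest as on its brighter probe set.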
